A study of Homo sapiens with 12 samples.

Results

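Toll-like receptors and RNA sensors are the proteins by which a cell detects microbial products and foreign or misplaced RNA. The genes described here are TLR1, TLR2, TLR3, TLR4, TLR5, TLR6, the adaptors TICAM1 (TRIF) and MYD88, and the cytosolic helicases RIGI (formerly DDX58) and IFIH1 (MDA5). They were taken as a named list, and every gene probe whose accession maps to one of them in a RefSeq table was used. That gave 14 probes of 10 genes, among 34127 probes and 27522 gene names on the array. The cells were U2OS, a human osteosarcoma line, transfected with 20 nM of a control siRNA or of siRNA against DBP5, GLE1 or IPPK and cultured for 48 h. DBP5 (DDX19B) is a helicase and GLE1 its activator at the nuclear pore, and IPPK makes inositol hexakisphosphate, a cofactor of that pair. For every siRNA there were 3 arrays of cytoplasmic RNA, read in a single colour, 12 in all. They lay on 3 slides, where the siRNAs were represented once each. The nuclear fraction was not analysed here, and in RNA of a culture fewer cells expressing a gene cannot be told apart from less RNA per cell.

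In these pathways, the receptors TLR1, TLR2, TLR4, TLR5 and TLR6 sit at the cell surface and bind bacterial lipoproteins, lipopolysaccharide or flagellin. TLR3 binds double-stranded RNA in endosomes and signals through TICAM1, whereas the other receptors signal through MYD88, TLR4 through both. RIGI and IFIH1 bind viral RNA in the cytosol and signal through MAVS, and these routes meet at kinases that activate NF-kappaB and the interferon regulatory factors.

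The siRNAs were themselves short RNA duplexes, so their sense strands are shown, 5′ to 3′. Capitals mark deoxyribonucleotides at the 3′ end. The sources used here list a pair of duplexes each for control, GLE1 and IPPK and do not state which went onto the arrays. Control strands are not shown. The duplexes differ in length and in their ends, and effects of a duplex itself were not tested apart from loss of its target.
DBP5 number 1: caagguguuuguucuggaugaggCT
GLE1 number 1: gagaagccuugggacaccaagagaa
GLE1 number 2: ccgucacagagcaaagauucucaAC
IPPK number 1: cugggaaguggaagcagaucagcAA
IPPK number 2: gccaaaauguggguuuauucc

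The siRNA targets were examined first. Levels are spot intensities after background subtraction and cyclic loess normalization between arrays, on a linear scale. DDX19B stood at 1200, 1130 and 1140 on the control arrays and at 76, 73.9 and 73.3 on the DBP5 siRNA arrays. Its level under DBP5 siRNA was 0.0643 ± 0.00121 of control (limma, adjusted p = 3.7e-11), where ± gives the SD over the 3 knock-down arrays here and below. The paralog DDX19A fell with it, from 7130, 7210 and 6780 to 394, 381 and 358. GLE1 stood at 313, 320 and 307 on the control arrays and at 42.4, 28.9 and 26.4 on the GLE1 siRNA arrays (0.102 ± 0.0274 of control; limma, adjusted p = 2.0e-08). IPPK stood at 638, 691 and 708 on the control arrays and at 123, 124 and 133 on the IPPK siRNA arrays (0.187 ± 0.00815 of control; limma, adjusted p = 1.6e-09). The size of these falls depended on the background correction. The log2 difference of IPPK under its siRNA was -2.42 as fitted and -1.87 on the authors' processed values. The log2 difference of GLE1 under its siRNA was -3.30 as fitted, -1.89 with normexp correction and -1.85 on the authors' processed values, and that of DDX19B under DBP5 siRNA was -3.96, -3.23 and -3.26. Each target was lowest on the 3 arrays of its own siRNA. For these 4 genes under an siRNA against another target there were 8 comparisons with control, of which 7 were called lower and 1 was not called (limma). DDX19B was 0.49 ± 0.0237 of control under GLE1 siRNA, IPPK was 0.42 ± 0.0142 of control under DBP5 siRNA, and DDX19A was 0.301 ± 0.00413 of control under IPPK siRNA. GLE1 under DBP5 siRNA was not called, at 0.783 ± 0.0736 of control (limma, adjusted p = 0.0718), but was with normexp, with quantile normalization, on the authors' processed values and in a fit to the 6 arrays compared (adjusted p from 0.0127 to 0.0245). Other calls were lost, for DDX19B under IPPK siRNA with normexp and on the authors' values (adjusted p = 0.102 and 0.0564), for GLE1 under IPPK siRNA without IPPK replicate 1 or control replicate 2 (0.0642 and 0.0538), and for IPPK under GLE1 siRNA by the methods' t-test (0.135).

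Detection came next, by the scanner software's flag for a spot well above background. Of the 14 member probes, 12 were well above background on all 12 arrays, and these represent 9 genes. The flag also marked 9 of 10 white blood cell markers on each control array of this osteosarcoma line, with PTPRC at a mean of 62.7. It therefore reports signal over background, and whether the signal of a dim probe is RNA of its gene was not tested. TLR3 had a control mean of 143, TLR5 of 193 and TLR1 of 202. The single TLR2 probe, printed as 10 spots on each array, was not well above background on any array over its spots together, with the flag set for a single spot, on GLE1 replicate 1. Its mean intensities were 3.45, 3.3, 3.33 and 3.96 for control, DBP5, GLE1 and IPPK siRNA, so no ratio is given. The dimmer of the 2 TLR5 probes was also not well above background on any array, while the brighter was on all of them.

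Testing was limited to the 25875 probes that this flag marked throughout the 3 arrays of some siRNA, and a probe was called at a limma p under 0.05 after Benjamini-Hochberg adjustment over all of them. Calls were common. Under DBP5 siRNA, 27.2% of all tested probes were lower and 27.1% higher than control, and of the 9 tested members, counted through the brightest probe, 5 were lower, 2 higher and 2 not called. Under GLE1 siRNA, 31% of probes were lower and 31% higher, and 3 members were lower, 3 higher and 3 not called. Under IPPK siRNA, 27.7% of probes were lower and 27.4% higher, and 2 members were lower, 5 higher and 2 not called. The members' median log2 differences were -0.47, 0.00 and 0.16 for DBP5, GLE1 and IPPK siRNA, beside -0.02, 0.02 and -0.02 over all probes. These 3 comparisons share the same control arrays. The counts depended on the test. The methods name a paired t-test in their general statistics. For the arrays they name rank-product gene lists, which were not used here. After adjustment the methods' t-test, in which arrays of one replicate number form a pair, called 4 members lower and 0 higher with DBP5 siRNA (5 and 1 unadjusted). It called 3 lower and 3 higher with GLE1 siRNA (4 and 3 unadjusted), and 2 lower and 4 higher with IPPK siRNA (2 and 5 unadjusted). Between knock-downs, GLE1 siRNA against DBP5 siRNA had 1 member lower and 6 higher (27.8% and 26.6% of all probes), IPPK against DBP5 had 2 lower and 5 higher (23.9% and 24.9%), and GLE1 against IPPK had 4 lower and 4 higher (30.5% and 29.7%). For these pairs the adjusted t-test called 0 lower and 5 higher (1 and 6 unadjusted), 0 lower and 3 higher (2 and 5 unadjusted), and 4 lower and 4 higher. Calls among the members are thus read against a background in which 12626 to 16053 of the 25875 probes were called, and the single genes are described in turn.

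**Figure D1:**
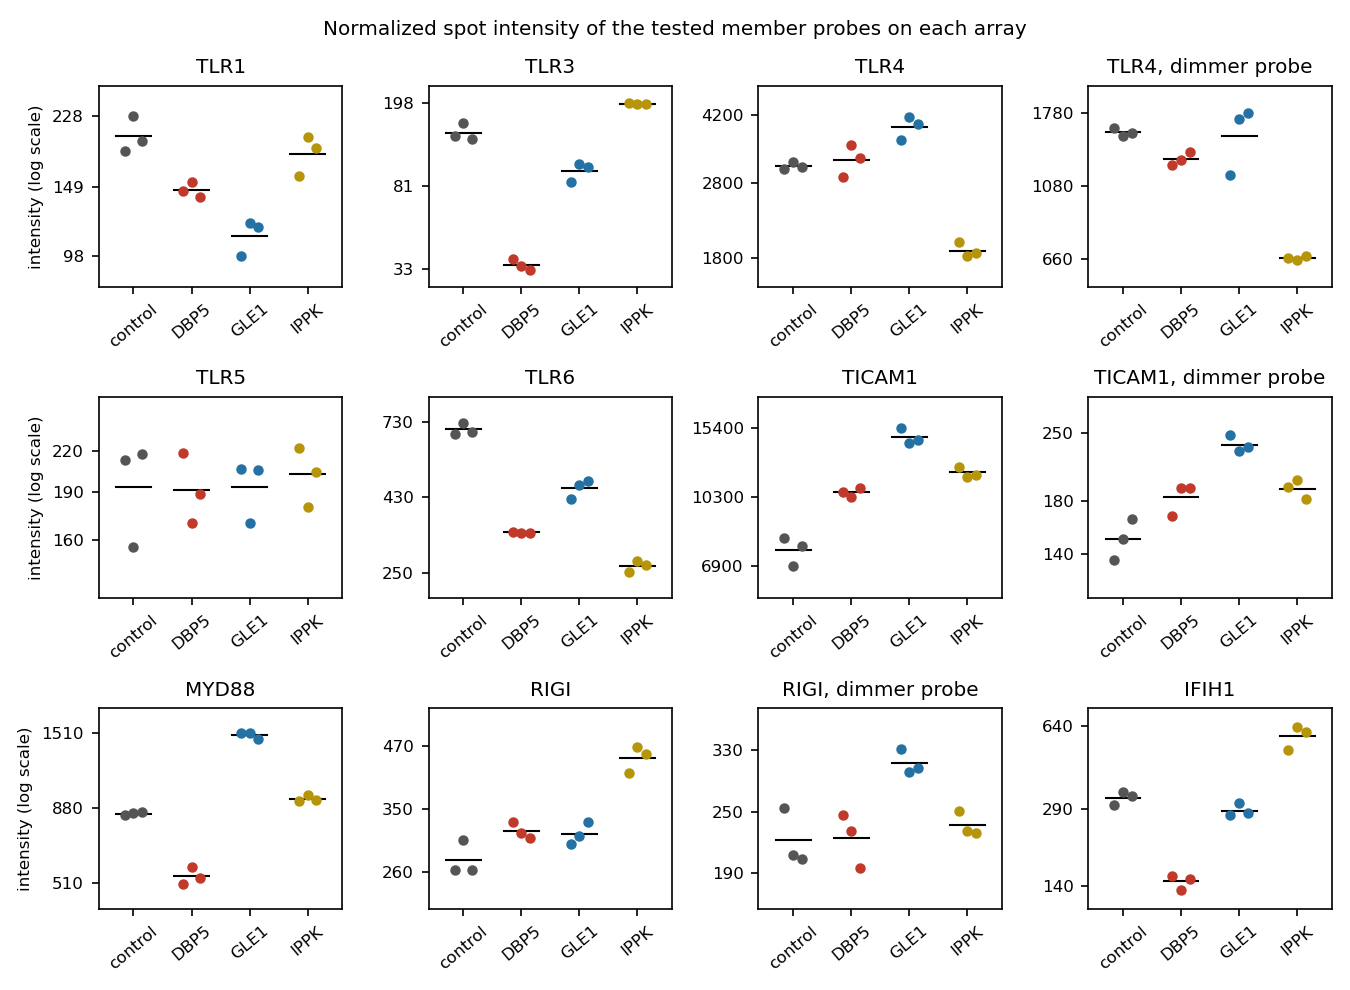
Normalized spot intensity (log scale, arbitrary units) of the 12 tested member probes; each point is 1 array, points run from replicate 1 to 3 within an siRNA, and each line is the geometric mean of 3 arrays. TLR3 on the 3 DBP5 siRNA arrays lies between 32.8 and 36.9, below all other arrays.

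TLR3, the endosomal receptor for double-stranded RNA, differed between every pair of siRNAs. It stood at 139, 159 and 134 on the control arrays, at 36.9, 34.1 and 32.8 with DBP5 siRNA, at 84.3, 103 and 99.7 with GLE1 siRNA and at 198, 195 and 195 with IPPK siRNA. The groups did not overlap, in the order IPPK, control, GLE1, DBP5 from high to low. Under DBP5 siRNA the level was 0.241 ± 0.0144 of control, a log2 difference of -2.05 (95% confidence interval -2.25 to -1.86; limma, adjusted p = 3.4e-08), and within the 3 slides the difference ran from -2.22 to -1.91. The fall was smaller with normexp background correction and on the authors' processed values, which follow the signal without background subtraction, at -1.13 in both, and was called in both. GLE1 siRNA gave 0.665 ± 0.0708 of control (limma, adjusted p = 1.7e-04). IPPK siRNA gave 1.37 ± 0.0142 of control (limma, adjusted p = 0.00136), higher in 3 of 3 slides, though not called by the methods' t-test after adjustment (adjusted p = 0.0657). IPPK siRNA against DBP5 siRNA gave a log2 difference of 2.50 (limma, adjusted p = 1.9e-08), or 1.52 and 1.48 in these alternatives.

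IFIH1, the helicase that binds long double-stranded RNA, had the same order of siRNAs. Its levels were 303, 341 and 329 for control, 154, 135 and 149 for DBP5 siRNA, 275, 307 and 280 for GLE1 siRNA and 512, 636 and 605 for IPPK siRNA. The DBP5 arrays were all below and the IPPK arrays all above the others, while control and GLE1 overlapped. DBP5 siRNA gave 0.449 ± 0.0308 of control (log2 difference -1.15, interval -1.35 to -0.95; limma, adjusted p = 1.9e-06). IPPK siRNA gave 1.8 ± 0.199 of control (log2 difference 0.85, interval 0.64 to 1.05; limma, adjusted p = 1.8e-05). Both were called in all 18 alternative settings, but their size varied. The DBP5 difference ran from -1.20 to -0.86, the latter with normexp. The IPPK difference ran from 0.57, on the authors' processed values, to 0.94. Under GLE1 siRNA the log2 difference of -0.17 (interval -0.38 to 0.03) did not pass (limma, adjusted p = 0.121), though it did with scaling to the 75th percentile (-0.21, adjusted p = 0.0384).

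Since TLR3 and IFIH1 shared an order of levels, the 250 bases before their RefSeq start sites (GRCh38.p14) are shown, with those of MYD88, which ordered differently. Of the 10 members, 9 had an entry in the promoter table, and TLR1 was not matched. Searched on both strands, with overlaps kept, were an interferon-response-like element (GAAA, any pair of bases, GAAA), which occurs in 3.02% of 35116 promoters over the same 250 bases, an NF-kappaB-like element (GGG, any pair of bases, TTTCC; 1.73%) and the E-box CACGTG (6.34%). Capitals mark matches.
TLR3 (chr4:186068906-186069155, plus strand): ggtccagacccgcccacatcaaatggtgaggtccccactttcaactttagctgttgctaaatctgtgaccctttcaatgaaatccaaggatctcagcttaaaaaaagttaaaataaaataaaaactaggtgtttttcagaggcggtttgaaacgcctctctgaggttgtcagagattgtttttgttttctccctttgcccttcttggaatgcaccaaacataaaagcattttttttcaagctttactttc
IFIH1 (chr2:162318685-162318934, minus strand): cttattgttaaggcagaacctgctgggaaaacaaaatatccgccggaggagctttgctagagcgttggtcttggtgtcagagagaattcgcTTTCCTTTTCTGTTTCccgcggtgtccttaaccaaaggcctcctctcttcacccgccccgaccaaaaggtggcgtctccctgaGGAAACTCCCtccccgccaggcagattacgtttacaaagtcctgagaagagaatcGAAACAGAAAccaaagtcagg
MYD88 (chr3:38138411-38138660, plus strand): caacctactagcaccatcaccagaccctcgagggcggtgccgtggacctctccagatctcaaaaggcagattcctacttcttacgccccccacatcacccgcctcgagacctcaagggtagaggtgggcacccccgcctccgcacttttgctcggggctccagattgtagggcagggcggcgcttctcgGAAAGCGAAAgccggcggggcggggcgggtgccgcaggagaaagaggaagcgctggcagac
IFIH1 had 3 interferon-response-like matches, a pair of them overlapping, and 1 NF-kappaB-like match. MYD88 had 1 interferon-response-like match, TICAM1 and RIGI 1 NF-kappaB-like match each, and TLR2 1 E-box. The TLR3 window held none of these letters. A match is a description of the sequence and was not tested for binding.

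RIGI, which binds short 5′-triphosphate RNA, was read by 2 probes that disagreed. The brighter probe stood at 263, 302 and 263 for control, 329, 313 and 305 for DBP5 siRNA, 297, 308 and 329 for GLE1 siRNA and 414, 468 and 452 for IPPK siRNA. The IPPK arrays were above all others, at 1.61 ± 0.0998 of control (log2 difference 0.69, interval 0.53 to 0.85; limma, adjusted p = 1.7e-05). The dimmer probe stood at 254, 206 and 202 for control, 246, 229 and 194 for DBP5 siRNA, 332, 299 and 304 for GLE1 siRNA and 251, 229 and 227 for IPPK siRNA. On it the GLE1 arrays were highest, at 1.42 ± 0.0802 of control (limma, adjusted p = 0.00188), and IPPK siRNA did not pass (1.07 ± 0.0592; limma, adjusted p = 0.466). GLE1 against IPPK siRNA had opposite signs on the 2 probes, -0.51 (limma, adjusted p = 1.2e-04) and 0.40 (limma, adjusted p = 0.00763). The small rise of the brighter probe under DBP5 siRNA (1.14 ± 0.0435; limma, adjusted p = 0.0434) was not called by Dunnett's test, by the methods' t-test, in a fit to the 6 arrays compared (adjusted p = 0.0861), or without DBP5 replicate 1, 2 or 3 or control replicate 1 or 3 (adjusted p from 0.0528 to 0.139). Nor was it called with normexp or without the filter on dim probes (limma, adjusted p = 0.0798 and 0.0655). Under GLE1 siRNA this probe did not pass at 0.18 (limma, adjusted p = 0.0585), but did without control replicate 2 (0.24, adjusted p = 0.0145). It also passed with quantile normalization (adjusted p = 0.0403) and on the authors' processed values (adjusted p = 0.0404).

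TLR6, a partner of TLR2 in the recognition of lipoproteins, was lower under all 3 siRNAs. It stood at 672, 728 and 683 for control, 336, 332 and 333 for DBP5 siRNA, 424, 466 and 481 for GLE1 siRNA and 252, 273 and 264 for IPPK siRNA. The groups did not overlap. The ratios to control were 0.379 ± 0.0154 for IPPK (limma, adjusted p = 2.2e-08), 0.481 ± 0.00291 for DBP5 (adjusted p = 1.8e-07) and 0.658 ± 0.0425 for GLE1 siRNA (adjusted p = 6.5e-06). Each pair of knock-downs also passed, with a log2 difference of -0.34 for IPPK against DBP5 (limma, adjusted p = 7.3e-04), but the methods' t-test after adjustment lost this call (adjusted p = 0.0567) and that for GLE1 against DBP5 (adjusted p = 0.0582).

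TLR1, the other partner of TLR2, was printed as 10 spots per array, which shows the spread within an array. The SD of log2 intensity over the spots of an array ran from 0.08 to 0.28, with a median of 0.10 over the 12 arrays. Normalized levels were 185, 228 and 196 for control, 145, 153 and 140 for DBP5 siRNA, 98, 120 and 117 for GLE1 siRNA and 159, 201 and 188 for IPPK siRNA. GLE1 siRNA gave 0.55 ± 0.0586 of control (log2 difference -0.86, interval -1.11 to -0.61; limma, adjusted p = 5.8e-05) and DBP5 siRNA 0.721 ± 0.0338 (adjusted p = 0.00464; 0.0602 by the methods' t-test). Control and IPPK arrays overlapped, and their difference of -0.16 (interval -0.41 to 0.09) did not pass (limma, adjusted p = 0.274). IPPK against DBP5 siRNA was near the threshold at 0.32 (limma, adjusted p = 0.0399) and was lost in 5 of the 6 fits that left out 1 array (without DBP5 replicate 1, 2 or 3 or IPPK replicate 2 or 3, adjusted p from 0.0532 to 0.142) and by the methods' t-test (adjusted p = 0.155). It was also lost with normexp, on the authors' processed values and without the filter on dim probes (limma, adjusted p = 0.105, 0.0793 and 0.0563).

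**Figure D2:**
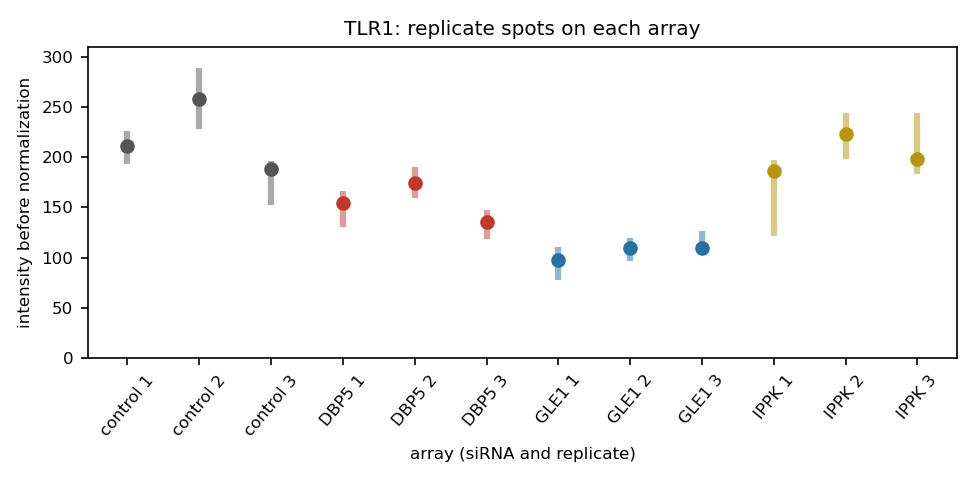
TLR1 intensity before normalization (linear axis from 0) on each of 12 arrays; the point is the median of 10 spots and the bar runs from the lowest to the highest spot. The medians on the GLE1 siRNA arrays lie between 97.5 and 110, below every spot of the control arrays.

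TLR4, the lipopolysaccharide receptor, was called lower than control only under IPPK siRNA, on both of its probes (limma). The brighter probe stood at 3050, 3170 and 3080 for control, 2910, 3510 and 3260 for DBP5 siRNA, 3630, 4160 and 3980 for GLE1 siRNA and 1980, 1820 and 1850 for IPPK siRNA. IPPK siRNA gave 0.608 ± 0.0276 of control on it (limma, adjusted p = 1.7e-05) and 0.425 ± 0.00581 on the dimmer probe (adjusted p = 1.5e-05). The probes differed under GLE1 siRNA. The brighter was 1.26 ± 0.0865 of control (limma, adjusted p = 0.00281), and the dimmer 0.978 ± 0.213 (adjusted p = 0.854), where the GLE1 arrays stood at 1170, 1710 and 1780. Without the lowest of these, GLE1 replicate 1, the dimmer probe was higher than control by 0.16 (limma, adjusted p = 0.0311). Under DBP5 siRNA neither probe passed, with log2 differences of 0.05 and -0.26 (limma, adjusted p = 0.599 and 0.117). On the dimmer probe, however, the DBP5 arrays did not overlap control. They stood at 1250, 1290 and 1360, below the control arrays at 1610, 1520 and 1550. The dimmer probe passed when only the 6 arrays compared were fitted (limma, adjusted p = 0.0146).

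TLR5, the flagellin receptor, passed in none of the 6 comparisons on its brighter probe (limma). Its levels were 213, 156 and 217 for control, 218, 170 and 188 for DBP5 siRNA, 206, 170 and 205 for GLE1 siRNA and 222, 180 and 204 for IPPK siRNA, and all groups overlapped. The log2 differences from control were -0.02, 0.00 and 0.06, with intervals of -0.34 to 0.31, -0.33 to 0.32 and -0.26 to 0.39. At an unadjusted p under 0.05, limma and the methods' t-test also called 0 of the 6 comparisons.

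MYD88, the adaptor of most Toll-like receptors, moved in opposite directions under DBP5 and GLE1 siRNA. It stood at 832, 844 and 855 for control, 508, 574 and 528 for DBP5 siRNA, 1510, 1510 and 1450 for GLE1 siRNA and 924, 964 and 929 for IPPK siRNA. DBP5 siRNA gave 0.636 ± 0.0404 of control (limma, adjusted p = 2.4e-06) and GLE1 siRNA 1.77 ± 0.0398 (adjusted p = 2.5e-07). GLE1 against DBP5 siRNA differed by 1.48 on the log2 scale (interval 1.36 to 1.60; limma, adjusted p = 1.0e-08), between 1.40 and 1.58 within the 3 slides. The small rise under IPPK siRNA, 1.11 ± 0.0259 (limma, adjusted p = 0.0289), was lost in 5 of the 6 fits that left out 1 array (without IPPK replicate 2 or 3 or control replicate 1, 2 or 3, adjusted p from 0.0504 to 0.101).

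TICAM1, the adaptor through which TLR3 signals, was higher under all 3 siRNAs on both of its probes by limma, but not in each case by the methods' t-test. The brighter stood at 8120, 6880 and 7770 for control, 10600, 10300 and 10900 for DBP5 siRNA, 15400, 14100 and 14400 for GLE1 siRNA and 12300, 11600 and 11700 for IPPK siRNA. The ratios to control on it were 1.93 ± 0.091 for GLE1 (limma, adjusted p = 4.9e-07), 1.57 ± 0.0473 for IPPK (adjusted p = 1.4e-05) and 1.4 ± 0.0393 for DBP5 siRNA (adjusted p = 1.2e-04). On the dimmer probe they were 1.57 ± 0.0631, 1.27 ± 0.0581 and 1.23 ± 0.0924 (limma, adjusted p = 4.1e-05, 0.00395 and 0.0109). After adjustment, the methods' t-test did not call the brighter probe with DBP5 siRNA (adjusted p = 0.0507) or the dimmer probe with GLE1, IPPK or DBP5 siRNA (adjusted p = 0.0541, 0.146 and 0.0623), and without adjustment it lost the dimmer probe's call with IPPK siRNA only. IPPK and DBP5 siRNA, neighbours in this order, differed by 0.16 on the brighter probe, which did not pass (limma, adjusted p = 0.069) but did with the replicate number as a block (adjusted p = 0.0284) and with scaling to the 75th percentile (adjusted p = 0.039). By limma, TLR3 and its adaptor thus differed from control in opposite directions under DBP5 and GLE1 siRNA.

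**Figure D3:**
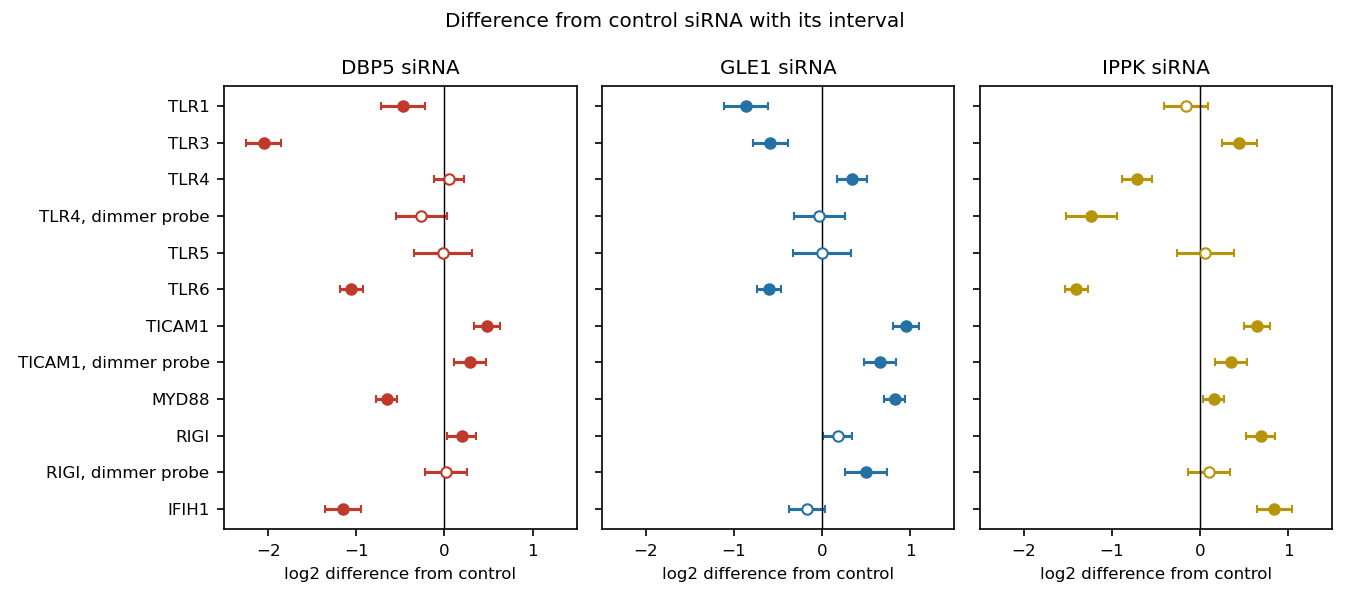
Log2 difference from control for the 12 tested member probes, with 95% confidence intervals from limma; filled points passed the threshold on adjusted p and open points did not. TLR3 under DBP5 siRNA lies farthest from 0, at -2.05, and TICAM1 lies to the right of 0 in all panels.

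As a description, the genes whose levels followed TLR3 most closely over the 12 arrays were CTPS2 (Pearson r = 0.992), CSTA (0.991) and MTHFD2 (0.990), among 18418 genes that the flag marked on every array. The arrays share slides and siRNAs, so these points are not independent. CTPS2 makes CTP, CSTA is a cysteine protease inhibitor and MTHFD2 is a mitochondrial enzyme of folate metabolism. Under DBP5 siRNA they stood at 0.542 ± 0.0213, 0.274 ± 0.00538 and 0.561 ± 0.0299 of control. The log2 difference of CSTA, -1.87, was -1.04 with normexp and -1.02 on the authors' processed values.

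Other genes of the same pathways were described through fixed lists, each counted through its brightest probe. The counts of these lists, and of the markers below, stand beside the limma shares over all tested probes. With DBP5 siRNA 27.2% of probes were lower and 27.1% higher. These shares were 31% and 31% with GLE1 siRNA, and 27.7% and 27.4% with IPPK siRNA. Some genes were tested only because of the siRNAs where they were bright, which favours a difference, so where counts changed they are also given with the flag required on all 12 arrays. Among other Toll-like receptors and co-receptors, 8 of 11 genes were tested, and TLR7, TLR8 and TLR10 were not well above background on any array. With DBP5 siRNA 1 fell and 2 rose, with GLE1 siRNA 3 fell and 2 rose, and with IPPK siRNA 2 fell and 2 rose. The methods' t-test after adjustment called 3 in all with GLE1 and 2 with IPPK siRNA. With the flag required throughout, 3 fell and 1 rose with GLE1, and 1 fell and 2 rose with IPPK siRNA. UNC93B1, which carries nucleic acid-sensing receptors to endosomes, was 4.17 ± 0.614 of control with DBP5, 2.93 ± 0.203 with GLE1 and 3.47 ± 0.106 with IPPK siRNA (limma, adjusted p = 1.6e-07, 6.6e-07 and 3.5e-07). HSP90B1, a chaperone of several Toll-like receptors, was 0.71 ± 0.0409, 0.716 ± 0.087 and 0.805 ± 0.0425 of control, and the adjusted t-test did not call it with GLE1 or IPPK siRNA (adjusted p = 0.0588 and 0.0545). LY96, the co-receptor of TLR4, was 0.637 ± 0.0569 of control with GLE1 siRNA and 1.41 ± 0.00554 with IPPK siRNA (limma, adjusted p = 1.9e-05 and 1.9e-04). With DBP5 siRNA LY96 was 1.21 ± 0.0955 of control (limma, adjusted p = 0.00798), a call lost by the methods' t-test after adjustment (adjusted p = 0.0988).

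Among adaptors and kinases of Toll-like receptors, 13 of 15 genes were tested, and their median log2 differences were 0.36, 0.45 and 0.20 for DBP5, GLE1 and IPPK siRNA. With DBP5 siRNA 1 fell and 8 rose, with GLE1 siRNA 0 fell and 10 rose (limma; 0 and 10 also at an unadjusted p under 0.05, and 1 and 10 by the unadjusted methods' t-test), and with IPPK siRNA 5 fell and 6 rose. The methods' t-test after adjustment called 0 lower and 4 higher with DBP5 siRNA. The kinase IRAK4 rose under each, to 1.81 ± 0.146, 2.31 ± 0.146 and 2.9 ± 0.0792 of control, the last a log2 difference of 1.53 that was 0.86 with normexp and 0.84 on the authors' processed values. IRAK1, which IRAK4 phosphorylates, was 0.343 ± 0.00701 of control with IPPK siRNA (limma, adjusted p = 2.4e-07), and IRAK2 was 0.447 ± 0.0741 with DBP5 siRNA (adjusted p = 7.3e-06; 0.0523 by the methods' t-test). TAB3, an adaptor of the kinase TAK1, was 2.42 ± 0.0479 of control with DBP5 and 2.34 ± 0.122 with GLE1 siRNA. RIPK1 was 2.03 ± 0.00314 of control with IPPK siRNA, and TOLLIP 1.83 ± 0.083 with GLE1 siRNA.

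All 16 cytosolic RNA sensing partners were tested. With DBP5 siRNA 3 fell and 6 rose, with GLE1 siRNA 5 fell and 7 rose, and with IPPK siRNA 3 fell and 6 rose. The methods' t-test after adjustment called 2 lower and 2 higher with DBP5, and 2 lower and 3 higher with GLE1 siRNA. RNF125, a ubiquitin ligase that acts on RIGI, IFIH1 and MAVS, was 4.92 ± 0.481, 9.99 ± 0.112 and 11.1 ± 0.965 of control with DBP5, GLE1 and IPPK siRNA (limma, adjusted p = 2.4e-08, 1.0e-09 and 1.8e-09). Its log2 differences were 2.30, 3.32 and 3.47 as fitted, 1.45, 2.27 and 2.47 with normexp, and 1.42, 2.24 and 2.42 on the authors' processed values. RNF135, a ligase that activates RIGI, was 1.74 ± 0.078 of control with DBP5 and 1.76 ± 0.119 with IPPK siRNA. MAVS was 1.44 ± 0.0414 of control with DBP5 siRNA, NLRX1 1.85 ± 0.0266 with IPPK siRNA, and TRIM25 1.43 ± 0.221 and ZCCHC3 0.713 ± 0.0224 with GLE1 siRNA. Of these, TRIM25 with GLE1 siRNA was not called by the methods' t-test (adjusted p = 0.134, unadjusted 0.0886), nor was MAVS with DBP5 siRNA after adjustment (adjusted p = 0.057). With DBP5 siRNA TRIM25 was lower, at a mean intensity of 3520 beside 5080 for control. Its log2 difference there ran from -0.60 to -0.50 over 17 alternative settings and was called in all of them.

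In the TBK1 and IRF branch, all 11 genes were tested, and 4 fell and 2 rose with DBP5, 5 fell and 3 rose with GLE1, and 5 fell and 4 rose with IPPK siRNA, where 5 in all were called without control replicate 1 and 5 on the authors' processed values. The methods' t-test after adjustment called 2, 5 and 3 in all with DBP5, GLE1 and IPPK siRNA. TRAF3, which links MAVS and TICAM1 to TBK1, was 0.28 ± 0.027 of control with IPPK siRNA (log2 difference -1.84; limma, adjusted p = 1.7e-08). TANK, a scaffold of TBK1, was 0.604 ± 0.006 of control with DBP5 and 0.355 ± 0.00758 with GLE1 siRNA. By limma the autophagy receptor OPTN rose under each, to 1.49 ± 0.069, 2.01 ± 0.107 and 1.56 ± 0.0606 of control, but its call with DBP5 siRNA was lost by the methods' t-test after adjustment (adjusted p = 0.0808). AZI2 was 1.31 ± 0.0276 of control with DBP5 and 1.43 ± 0.0776 with IPPK siRNA, and IKBKE 1.92 ± 0.15 with GLE1 siRNA. With GLE1 siRNA AZI2 was lower, by a log2 difference of -0.20. That fall was called in 16 of 17 alternative settings, but not by the methods' t-test after adjustment (adjusted p = 0.0587).

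Among other nucleic acid sensors and effectors, 15 of 16 genes were tested, with median log2 differences of -0.54, -0.14 and -0.28. With DBP5 siRNA 9 fell and 2 rose, with GLE1 siRNA 7 fell and 5 rose, and with IPPK siRNA 8 fell. After adjustment, the methods' t-test called 5 lower and 1 higher with DBP5 siRNA. Those that rose with GLE1 siRNA include AIM2, named here after its values were seen, which was well above background on 1, 1, 3 and 0 arrays of control, DBP5, GLE1 and IPPK siRNA and so was tested only through the siRNA where it was high. Its log2 difference there was 1.37 as fitted, 0.24 with normexp and 0.21 on the authors' processed values. Among genes that the flag marked on every array, 8 fell and 2 rose with DBP5, and 6 fell and 4 rose with GLE1 siRNA. Interferon-induced genes were not tested as a group, and the genes named next are those with the largest differences. Named after its values were seen, IFI16 of the same list had mean intensities of 946, 1400, 2060 and 996 for control, DBP5, GLE1 and IPPK siRNA. Those of IFIT1 were 480, 441, 148 and 480. OAS2 was 0.211 ± 0.0195 of control with DBP5 and 0.275 ± 0.0313 with GLE1 siRNA (limma, adjusted p = 1.8e-07 and 3.7e-07). These log2 differences, -2.25 and -1.86, were -1.37 and -1.16 with normexp and -1.34 and -1.17 on the authors' processed values. IFIT2 was 0.276 ± 0.0359, 0.352 ± 0.032 and 0.416 ± 0.0301 of control with DBP5, GLE1 and IPPK siRNA, the first a log2 difference of -1.86 that was -1.23 with normexp and -1.24 on the authors' processed values. OAS3 was 0.363 ± 0.0431 of control with DBP5, IFIT1 0.307 ± 0.0112 with GLE1 and OASL 0.505 ± 0.0592 with IPPK siRNA.

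**Figure D4:**
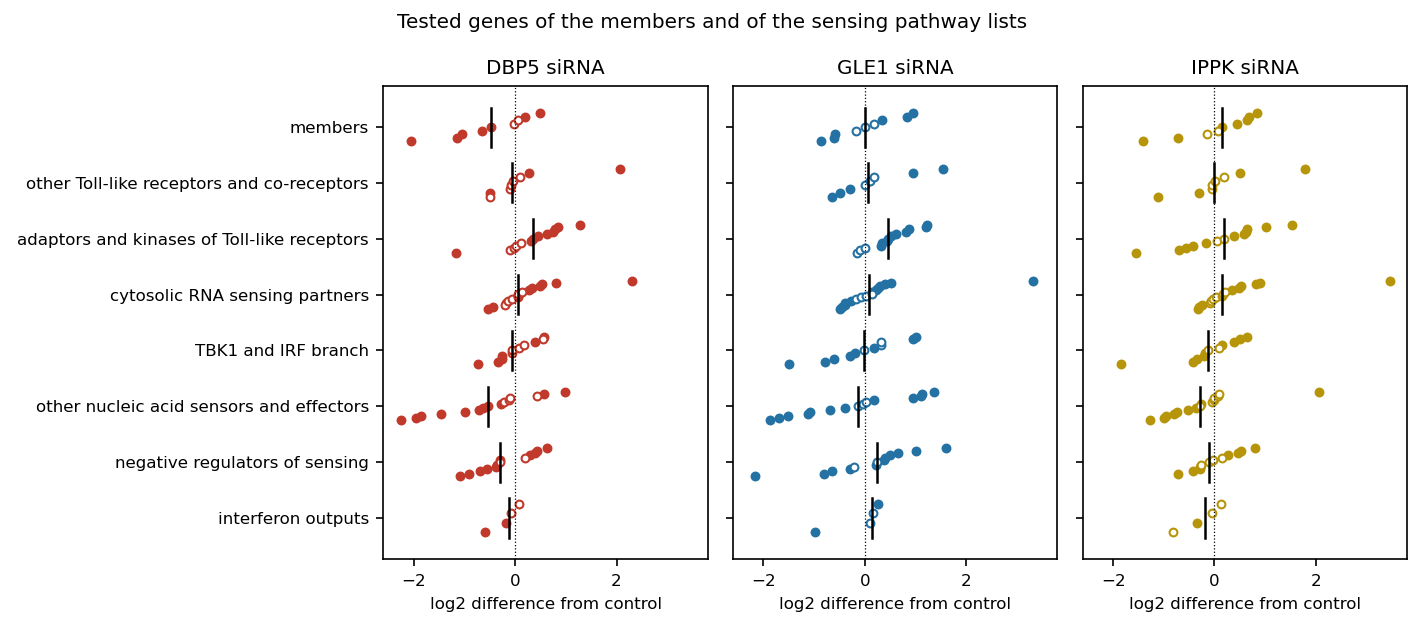
Log2 difference from control of each tested gene of the members and of 7 pathway lists, 1 point per gene through its brightest probe, spread vertically in order of value; filled points passed limma's threshold and each line is a list's median. The point farthest to the right is RNF125, at 3.47 with IPPK siRNA.

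All 13 negative regulators of sensing were tested, and 7 fell and 4 rose with DBP5, 4 fell and 7 rose with GLE1, and 5 fell and 4 rose with IPPK siRNA. After adjustment, the methods' t-test called 4 lower and 1 higher with DBP5 siRNA. With the filter on all 12 arrays, 7 fell and 3 rose with DBP5, and 4 fell and 4 rose with IPPK siRNA. TNFAIP3 (A20) and CYLD, deubiquitinases that restrain NF-kappaB, were 0.472 ± 0.0507 and 0.534 ± 0.0482 of control with DBP5 siRNA (limma, adjusted p = 9.8e-07 and 1.7e-05), and TRIM38 was 0.622 ± 0.105, not called by the adjusted t-test (adjusted p = 0.0762). With GLE1 siRNA CYLD was 2.02 ± 0.136 of control, the phosphatase DUSP1 3.02 ± 0.0326 and the autophagy gene ATG5 0.223 ± 0.00671 (limma, adjusted p = 5.9e-10). TNFAIP3 was also higher with GLE1 siRNA, at a mean intensity of 1360 beside 869 for control. Its log2 difference there ran from 0.53 to 0.69 over 17 alternative settings and was called in all of them. With IPPK siRNA SIGIRR was 1.75 ± 0.0967 of control, RNF216 1.43 ± 0.0244 and ATG12 0.605 ± 0.0188.

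Of 8 interferon outputs, 4 were tested. IFNB1, which encodes interferon beta, was not well above background on any array, at mean intensities of 6.43, 10.1, 6.54 and 6.38 for control, DBP5, GLE1 and IPPK siRNA, so no ratio is given. With DBP5 siRNA 2 fell and 0 rose, with GLE1 siRNA 1 fell and 1 rose, and with IPPK siRNA 1 fell and 0 rose (limma). None rose under DBP5 or IPPK siRNA at an unadjusted limma p under 0.05 either, and by the unadjusted methods' t-test 0 rose with DBP5 and 1 with IPPK siRNA. After adjustment that test called 0 in all with DBP5 and 0 with IPPK siRNA. MX1 was 0.658 ± 0.0625, 0.504 ± 0.0562 and 0.787 ± 0.0809 of control (limma, adjusted p = 5.4e-04, 1.0e-05 and 0.0155), and the call with IPPK siRNA was lost without IPPK replicate 1 (adjusted p = 0.0594). The methods' t-test did not call it with IPPK siRNA (adjusted p = 0.129, unadjusted 0.0734), or with DBP5 siRNA after adjustment (adjusted p = 0.0545). ISG15 was 0.886 ± 0.061 of control with DBP5 siRNA (limma, adjusted p = 0.0281), a call lost without DBP5 replicate 1 or 2 or control replicate 1 or 2 (adjusted p from 0.0552 to 0.092), in a fit to the 6 arrays compared (0.0997) and by the methods' t-test (0.22), and 1.2 ± 0.0313 with GLE1 siRNA (adjusted p = 0.00234).

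The labelled cell line was set against markers. Intensities of different probes are not on a common scale, so the sums give no order among genes and follow their brightest probes, VIM for 70.7% to 86.1% of the mesenchymal sum and CD79A for 57.2% to 74.9% of the white blood cell sum. Of 8 osteosarcoma line and mesenchymal markers, 8 were well above background on each control array, and their summed intensity was 282000, 264000 and 337000 for control, 349000, 327000 and 396000 for DBP5, 375000, 382000 and 377000 for GLE1 and 269000, 295000 and 300000 for IPPK siRNA. Of 8 epithelial markers, 6 were well above background on each control array, and KRT5 was on none. Their sum was 5380, 5430 and 5490 for control, 4430, 5020 and 5480 for DBP5, 26100, 26800 and 25600 for GLE1 and 2120, 2820 and 2990 for IPPK siRNA, and CLDN4 made up 80.7% to 82.6% of it on the GLE1 siRNA arrays. Of 10 white blood cell markers on the array, 9 were well above background on each control array and HLA-DRA was on none. The sum was 4960, 4620 and 4820 for control, 5100, 4350 and 4330 for DBP5, 5640, 5970 and 6560 for GLE1 and 5740, 4610 and 4610 for IPPK siRNA. PTPRC, which all white blood cells carry, had mean intensities of 62.7, 63.1, 66.9 and 73.9 for control, DBP5, GLE1 and IPPK siRNA. CSF1R of the same list, named after its values were seen, differed more, at 366, 124, 798 and 67.1. Of the mesenchymal markers, 2 fell and 2 rose with DBP5, 1 fell and 1 rose with GLE1, and 4 fell and 0 rose with IPPK siRNA (limma; also 0 at an unadjusted p under 0.05 and by the methods' t-test). Of 7 epithelial markers tested, 4 fell and 1 rose with DBP5 (3 in all without DBP5 replicate 2 or 3 or any 1 control array), 0 fell and 4 rose with GLE1 (limma; also 0 at an unadjusted p under 0.05 and by the methods' t-test), and 5 fell and 2 rose with IPPK siRNA. Of 9 white blood cell markers tested, 1 fell and 1 rose with DBP5, 1 fell and 2 rose with GLE1, and 2 fell and 1 rose with IPPK siRNA. With the replicate number as a block 5 were called with GLE1 and 5 with IPPK siRNA, while 1 was called with DBP5 siRNA without control replicate 1, and 1 with GLE1 siRNA without GLE1 replicate 2 or control replicate 1. By the methods' t-test after adjustment, calls came to 2 and 1 mesenchymal markers with DBP5 and GLE1 siRNA, and 1 and 3 epithelial markers with DBP5 and IPPK siRNA. The filter acted on these counts too. CDH1, which limma called higher with each knock-down, was well above background on 0 control arrays and on 3, 3 and 2 arrays of DBP5, GLE1 and IPPK siRNA, and COL1A2, which limma called lower with DBP5 and IPPK siRNA, on 3 control arrays and on 0, 1 and 0. Both are named after their values were seen, and their calls were less firm than the counts show. For CDH1 the log2 differences of 0.94, 3.30 and 1.30 with DBP5, GLE1 and IPPK siRNA were 0.18, 1.16 and 0.27 with normexp and 0.22, 1.16 and 0.29 on the authors' processed values. The call with DBP5 siRNA was lost with normexp (adjusted p = 0.0508), and those with DBP5 and IPPK siRNA by the methods' t-test (adjusted p = 0.0985 and 0.0887). For COL1A2 the differences of -0.86 and -0.88 were -0.13 and -0.12 with normexp and -0.12 and -0.10 on the authors' values, where the call with IPPK siRNA was lost (adjusted p = 0.0804), and the adjusted t-test lost that with DBP5 siRNA (adjusted p = 0.0573). With the filter on all 12 arrays, 3 epithelial markers fell and 0 rose with DBP5, 0 fell and 3 rose with GLE1, and 4 fell and 1 rose with IPPK siRNA. Of the mesenchymal markers 1 then fell and 2 rose with DBP5, and 3 fell and 0 rose with IPPK siRNA, and of the white blood cell markers 0 fell and 3 rose with GLE1 siRNA. At an unadjusted limma p under 0.05, each of these counts of 0 over the genes marked on all 12 arrays was also 0. With normexp 2 epithelial markers were called with DBP5 and 1 white blood cell marker with GLE1 siRNA. The part of these markers in the members' differences was not tested.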

How the data were processed

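The 12 Agilent arrays, read in one colour, held cytoplasmic RNA of U2OS cells and were grouped by their labels. The authors deposited Feature Extraction output, with a background-subtracted intensity on a linear scale for every spot, median signals and flags, and a table of log2 values that the methods describe as LOESS-normalized. Set against the scanner values, the authors' log2 table followed the median signal without background subtraction (column medians 7.746 to 7.759). Here log2 intensities were normalized by cyclic loess. Control spots and 169 to 358 outlier spots per array were left out, and spots of a probe were averaged. Between 70.9% and 77.7% of probes per array were well above background, and precision is limited by how few arrays there are and, for dim probes, by their signal over background. Probes were named through RefSeq accessions (26449 of 34127). Tests were two-sided and used limma 3.58.1 (R 4.3.3), fitting the mean of each siRNA, and Dunnett's test multcomp 1.4.28. Ratios to control carry the SD of 3 knock-down arrays. Named genes are all members, the knock-down targets, IFNB1 and TRAF3, and per list and knock-down up to 3 called genes with the largest difference that were well above background on all arrays and did not overlap control, except a gene that is not reported here. The members and lists were chosen with earlier results of these data known. The replicate number marks the slide. Over 22883 probes, deviations of the 18 same-numbered array pairs correlated at 0.309 to 0.520, and of the 36 others at -0.327 to -0.0077, so the numbers pair the arrays. Normexp was run on the median signal.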

Additional observations from a re-analysis of the deposited data

How the results depend on the processing

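The fits were repeated with other normalizations (75th percentile, quantile, normexp), on the authors' own processed values, with a looser or stricter filter on dim probes, one probe per gene, the replicate block, only the 6 arrays compared, the methods' t-test, Dunnett's test against control and each array left out in turn. The rank-product lists that the methods name for the arrays were not among these settings. The largest departure came with the methods' t-test, from their general statistics, run two-sided on pairs with the same replicate number and adjusted by Benjamini-Hochberg. It called 4 members for DBP5 against control and 3 for IPPK against DBP5, in place of 7 and 7. Over all probes it called 6223 for DBP5 against control, 6232 for GLE1 against DBP5, 4729 for IPPK against DBP5 and 9300 for IPPK against control, in place of 14066, 14090, 12626 and 14235. Without adjustment at 0.05 it called 11960, 11910, 10997 and 13301. Each test has 2 degrees of freedom. Under the other settings the members called stayed between 6 and 9 of 9, and with an array left out between 6 and 8. The replicate block called 7, 6 and 7 members for DBP5, GLE1 and IPPK against control, the same counts as without it, and of the named genes' calls changed only TICAM1 for IPPK against DBP5 and CYLD for IPPK against control (0.15, adjusted p = 0.0212). One direction turned with a call: the dimmer TLR4 probe for GLE1 against control was -0.03 with all arrays and ran from -0.14 without GLE1 replicate 3 to 0.16 without GLE1 replicate 1, and the cause was not tested. Of 432 member differences with an array left out, 16 lost a call, 2 gained one and 1 turned. The methods' t-test after adjustment lost 16 of 72, and 37 of 138 of the other named genes' differences. Normexp and the authors' processed values each moved 19 named differences by over 1.5 times in the linear ratio. On the log2 scale all of these moved toward 0. All were still called except CDH1 with DBP5 siRNA under normexp and COL1A2 with IPPK siRNA on the authors' values. They are given beside the genes or, for TLR3 with GLE1 against DBP5, were 0.76 and 0.74 in place of 1.47. Smaller shifts on the authors' values are not all given. TLR1 with GLE1 siRNA was -0.58 there and -0.86 as fitted. CYLD with DBP5 siRNA was -0.45 and -0.90, and IRAK4 with GLE1 siRNA 0.64 and 1.21. Scaling to the 75th percentile moved the median of all probes by at most 0.05 on the log2 scale. Signal over background limits TLR2, IFNB1 and the dimmer TLR5 probe, which were not well above background on any array. It also limits the size of differences of dim tested genes. TLR3 with DBP5 siRNA against control was -2.05 as fitted and -1.13 with normexp and on the authors' values.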
